A study of Mus musculus with 2 samples.

Results

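Transcripts of 9 genes of the red cell lineage were followed on 1 array of primitive and 1 array of maturing haematopoietic stem cells (HSC). The genes were Gata1, Klf1, Nfe2, Epor, Tfrc, Car1, Car2, Alas2 and Hba-a1, and they were taken by gene symbol from the platform annotation of the array. They are 9 of 12393 genes that had a probe set of their own. Both cell populations were sorted by flow cytometry from mouse bone marrow after a short culture, and neither was treated. Per the labels, 1 sample held the primitive and 1 the maturing cells. Strain, age and genotype of the mice and the gates of the sort were not given in these sources. RNA of each population was turned into a cDNA library, amplified by PCR and cloned in phage, and the inserts were labelled and hybridised, so each array reports a cloned library and not RNA taken straight from cells.

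Erythroid cells arise from multipotent progenitors under a small set of DNA-binding factors. GATA1 binds GATA motifs in most erythroid genes, KLF1 binds CACCC boxes and switches on globin and membrane genes, and NF-E2, a dimer of the Nfe2 product p45 with a small Maf protein, acts at globin and heme genes and in platelet formation. The erythropoietin receptor, encoded by Epor, carries the survival signal, and the transferrin receptor, encoded by Tfrc, brings in iron. Carbonic anhydrases hydrate carbon dioxide, ALAS2 makes the first precursor of heme in erythroid cells, and Hba-a1 encodes the alpha chain of haemoglobin. Gata1, Nfe2 and Epor are also known from megakaryocytes or mast cells, and Tfrc from dividing cells of any kind, so a signal for one of them does not by itself mark a red cell precursor.

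Promoter windows from RefSeq (GRCm38.p6) were searched for the letters that the factors in the list are known to read. Each window runs from 250 bases before to 50 bases after the start of a gene, and 6 of the 9 genes had one. Nfe2, Car1 and Car2 had no entry. The motif of GATA factors was searched as GATAA, which reads TTATC when it lies on the opposite strand. The box bound by KLF1 was searched as CCACCC, which reads GGGTGG there. In the windows of these 6 genes no match of one motif shares bases with a match of the other. The windows of Klf1 and Epor are shown because both genes were measured and hold both motifs, that of Gata1 because it encodes the factor itself, and that of Alas2 because it holds both motifs and its gene was below the limit of measurement on both arrays. Each sequence reads 5′ to 3′ in the direction of the gene, and capitals mark the motifs.
Klf1, chr8:84901732-84902031, plus strand: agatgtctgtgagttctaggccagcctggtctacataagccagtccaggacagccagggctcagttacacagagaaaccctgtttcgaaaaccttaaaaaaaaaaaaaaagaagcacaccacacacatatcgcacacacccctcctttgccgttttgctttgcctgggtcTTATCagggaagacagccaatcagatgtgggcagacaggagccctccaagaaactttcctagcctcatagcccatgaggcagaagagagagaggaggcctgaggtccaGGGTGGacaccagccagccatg
Epor, chr9:21963527-21963826, minus strand: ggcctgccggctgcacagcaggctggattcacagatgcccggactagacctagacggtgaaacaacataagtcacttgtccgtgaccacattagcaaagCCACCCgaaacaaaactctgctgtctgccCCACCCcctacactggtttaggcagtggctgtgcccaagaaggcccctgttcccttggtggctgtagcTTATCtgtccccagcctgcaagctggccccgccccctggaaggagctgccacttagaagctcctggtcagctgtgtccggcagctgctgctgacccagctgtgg
Gata1, chrX:7967861-7968160, minus strand: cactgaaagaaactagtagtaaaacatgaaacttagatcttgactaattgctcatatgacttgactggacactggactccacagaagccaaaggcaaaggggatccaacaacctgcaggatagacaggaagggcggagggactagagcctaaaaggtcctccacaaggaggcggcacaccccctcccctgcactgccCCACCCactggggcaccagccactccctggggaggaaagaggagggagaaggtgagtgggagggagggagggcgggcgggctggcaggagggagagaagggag
Alas2, chrX:150547167-150547466, plus strand: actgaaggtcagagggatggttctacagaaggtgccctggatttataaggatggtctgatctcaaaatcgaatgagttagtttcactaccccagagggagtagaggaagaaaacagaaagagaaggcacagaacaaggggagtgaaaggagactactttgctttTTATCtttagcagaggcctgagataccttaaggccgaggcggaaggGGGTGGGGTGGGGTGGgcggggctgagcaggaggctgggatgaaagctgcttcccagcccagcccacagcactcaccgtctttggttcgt

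GATAA was found in the windows of 4 of the 6 genes, namely Klf1, Epor, Alas2 and Hba-a1, and in 25.4% of 32851 windows of this length. It began 80 bases before the start of Klf1, 54 before that of Epor and 86 before that of Alas2. CCACCC was found in the windows of all 6 genes, against 31.5% of windows, and in Alas2 the 3 copies share bases with their neighbours. Both motifs together were found in 6.37% of windows. A match describes the letters only. Of the genes shown with both motifs, Klf1 had a log2 ratio of 1.89 between the arrays, Epor one of -0.29, and Alas2 was not measured, as described below.

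The values were MAS5 signal intensities. Intensities at or under 441.0, the pooled median of all probe sets that are not controls, were taken as not measured, and ratios are log2 of primitive over maturing. Of 12393 genes, 8852 were above this floor on at least 1 array, and their median log2 ratio was 0.07. A single array stood for each population, so no difference could be tested, and each ratio describes this pair of libraries. The only spread that can be set beside a ratio is that between probe sets of the same gene, which had an SD of 0.82 on the log2 scale over 1318 genes. It does not cover the error of sorting, library making or hybridisation. All 18 hybridisation control probe sets, which detect transcripts added to the labelled sample, were brighter for primitive HSC, by a log2 ratio of 0.97 at the median, and the part of this in the ratios below was not tested.

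The 9 genes had 17 probe sets. Of these, 11 were annotated to 1 of the genes alone, 3 to both Hba-a1 and its neighbour copy, and 3 were array controls for Tfrc. Of the 9 genes, 6 were measured, all of them above the floor on both arrays, and Car1, Alas2 and Hba-a1 were not. Nfe2 was the only member at least 4-fold apart, higher in primitive HSC, and no member was 4-fold higher in maturing HSC. Among all measured genes 3.45% passed 4-fold toward primitive HSC, 4.69% toward maturing HSC and 8.13% in either direction. The median log2 ratio of the 6 measured members was 0.33, with 3 above and 3 below 0.

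**Figure D1:**
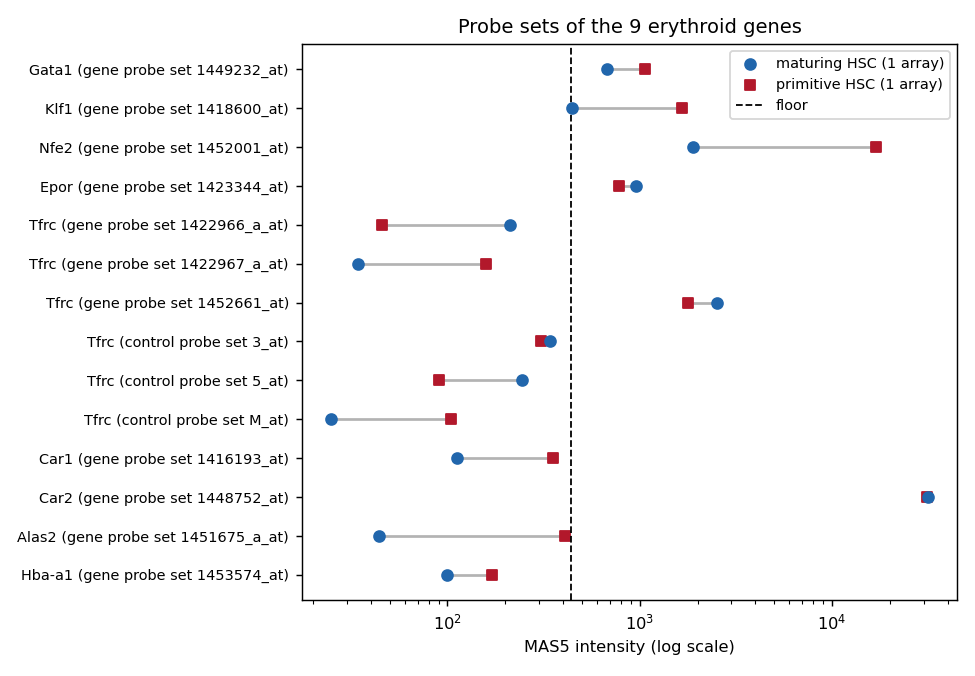
MAS5 intensity (log scale) of each probe set of the 9 genes on the primitive (red squares) and maturing (blue circles) array, with the 3 probe sets shared between both alpha-globin genes left out. Nfe2 shows the widest gap above the dashed floor at 441.0, the Car2 symbols overlap, and Car1, Alas2, Hba-a1 and 5 of the 6 Tfrc probe sets lie left of the floor on both arrays.

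Of the 3 transcription factors, Nfe2 had by far the largest difference. Its probe set read 16929 in primitive and 1889 in maturing HSC. That is 8.96-fold higher in primitive HSC, a log2 ratio of 3.16, or 3.84 times the spread between probe sets. Klf1 read 1652 in primitive and 444.5 in maturing HSC. The maturing value lies just above the floor, and the log2 ratio of 1.89 (3.71-fold) is 2.30 times the spread between probe sets. Gata1 read 1063 in primitive and 672.0 in maturing HSC. Its log2 ratio of 0.66 (1.58-fold) is smaller than the spread between probe sets, and it turned to -0.31 after scaling to the hybridisation controls. All 3 factors were thus brighter on the primitive array with equal array means, and with scaling to the controls only Nfe2 (2.19) and Klf1 (0.92) were. At 2-fold with equal array means, Nfe2 and Klf1 passed toward primitive HSC and no member passed toward maturing HSC. Of all measured genes 15.6% and 17.6% did (33.3% in either direction). With scaling to the hybridisation controls Klf1 no longer passed, and Epor (-1.26) and Tfrc (-1.48) passed toward maturing HSC. The median of all measured genes was -0.74 there. The share of all genes passing 2-fold was not counted under that scaling, so these passes cannot be set against it. Each of the 3 factors has 1 probe set, so no second probe set bears on these values.

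**Figure D2:**
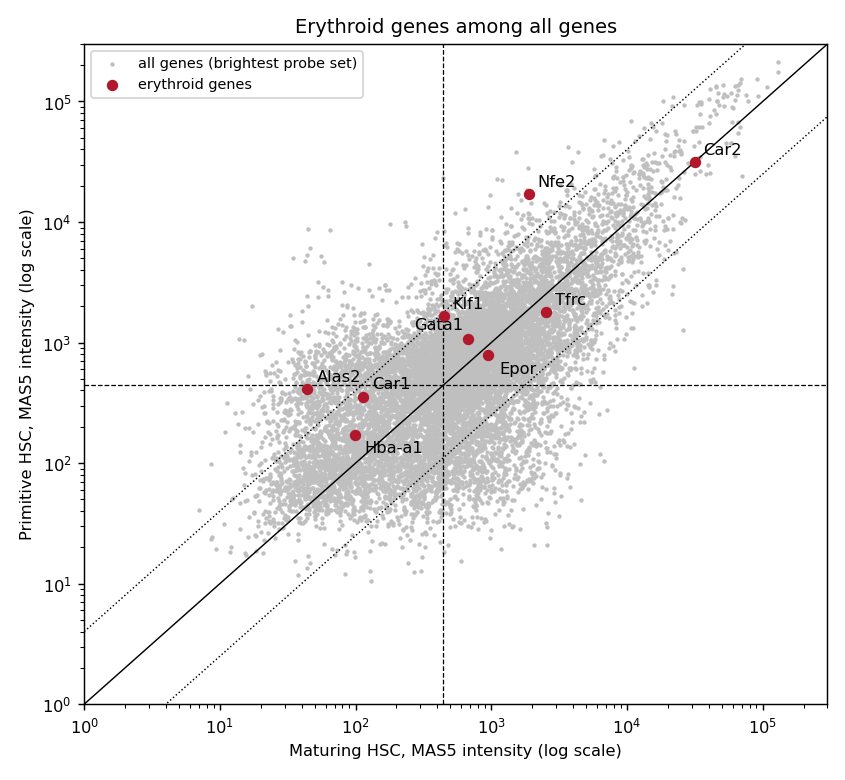
Intensity on the primitive array against intensity on the maturing array, both on log scales, for the brightest probe set of each of 12393 genes (grey) with the 9 erythroid genes in red. The solid line marks equal values, the dotted lines 4-fold differences and the dashed lines the floor; Nfe2 lies above the upper dotted line, Klf1 just below it, and Car2 on the line of equal values.

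Of the receptors, neither was far from equal. Epor read 781.2 in primitive and 952.8 in maturing HSC, a log2 ratio of -0.29. Tfrc read 1780 and 2526 with its brightest probe set, a log2 ratio of -0.51. Both ratios are smaller than the spread between probe sets, and scaling to the hybridisation controls moved them to -1.26 and -1.48. The other 5 probe sets of Tfrc, 3 of them array controls for the ends and the middle of the transcript, were below the floor on both arrays. The control for the 3′ end read 307.0 and 343.1, that for the middle 104.0 and 24.9, and that for the 5′ end 90.9 and 244.2. The Tfrc value therefore rests on 1 of 6 probe sets.

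Of the 2 carbonic anhydrase members, Car2 was bright on both arrays and nearly equal when these had equal means, and Car1 was not measured. Car2 read 31257.5 in primitive and 31459.9 in maturing HSC. The log2 ratio of -0.01 is the smallest among the measured members. After lowess and quantile normalization, which lower the ratios of bright genes on these arrays, Car2 stood at -0.73 and -0.74, and at -0.98 with scaling to the hybridisation controls. Car1, the isozyme of red cells and colon, read 355.2 and 112.7 and was below the floor on both arrays. In the RefSeq gene order Car13, Car1, Car3 and Car2 are direct neighbours. Car13 read 686.6 and 822.6, with its probe sets from -0.26 to 0.55, and Car3 read 75.2 against 927.8, a difference of at least 2.10-fold toward maturing HSC. Of 16 carbonic anhydrase genes on the array, 8 were measured. No ratio or bound reached 4-fold, which 8.13% of all measured genes did, so a list of 8 can easily hold none. Their median was 0.08 (-1.11 with scaling to the hybridisation controls and 0.80 with the floor at percentile 25). Car5b, Car6, Car7 and Car8 were above the floor only in primitive HSC, at 497.2 to 673.7, and the mostly nervous system gene Car11 had a log2 ratio of -0.65.

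The late members Alas2 and Hba-a1 were under the limit of measurement by the probe sets annotated to each alone, while probe sets shared between globin genes were not all under it. Alas2 read 408.5 in primitive and 44.1 in maturing HSC, so its primitive value came close to the floor without passing it, and no ratio is given. The 1 probe set annotated to Hba-a1 alone read 170.0 and 99.3. Of 11 probe sets assigned to a single globin gene, 10 were below the floor on both arrays, and the remaining probe set, for the embryonic zeta chain gene Hba-x, read 611.4 and 544.0. Probe sets shared between globin genes did give a signal. The brightest, 1417184_s_at, annotated to Hbb-b1, Hbb-b2, Hbb-bs and Hbb-bt together, read 23612 in primitive and 3326 in maturing HSC. Probe set 1428361_x_at, annotated to both Hba-a1 and Hba-a2, read 2720 in primitive and 1133 in maturing HSC, a log2 ratio of 1.26. Probe set 1452757_s_at, with the same annotation, read 1055 in primitive HSC and was below the floor in maturing HSC at 381.7, a difference of at least 2.39-fold. The third alpha-globin probe set, 1417714_x_at, read 65.1 and 30.0. None of these can be assigned to Hba-a1.

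**Figure D3:**
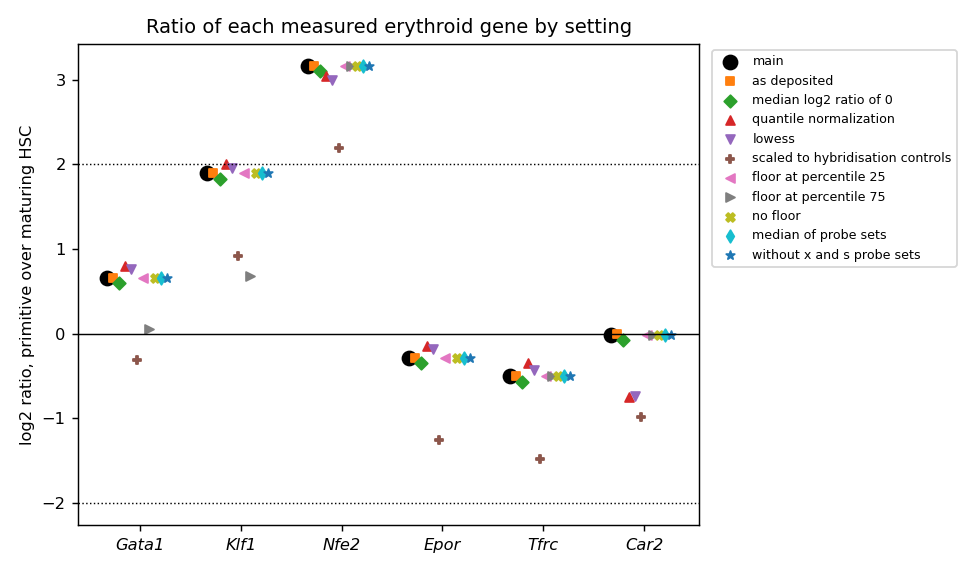
Log2 ratio of primitive over maturing HSC for each of the 6 measured genes under the main setting (large black circles) and 10 alternative settings (other symbols), with dotted lines at 4-fold. Nfe2 stays above the upper dotted line in every setting shown, Klf1 crosses it once (quantile normalization), and Gata1 falls below 0 once (scaling to the hybridisation controls).

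The partners of these factors did not follow one direction. Of 27 listed erythroid transcription factors and partners, 22 were measured, 13 of them higher in primitive and 9 higher in maturing HSC, and their median was 0.49, or 0.19 without the 3 members (-0.41 for the list with scaling to the hybridisation controls, over the genes above the floor there). Besides Nfe2, Bcl11a, a repressor of fetal globin genes, was 4-fold higher in primitive HSC (4104 against 919, log2 2.16, with its second probe set at 0.35). Myb, which keeps progenitors dividing and undifferentiated, was lower in primitive HSC by all 3 of its probe sets, from -2.44 to -1.69. Tal1 and Lmo2, whose products form a complex with GATA1, stood at -0.01 and -0.90, and Gata2, the GATA factor of earlier progenitors, at 0.19, while Ldb1 of the same complex and the GATA1 target Gfi1b were below the floor. Zfpm1, which encodes a GATA1 cofactor, was higher in maturing HSC by at least 1.69-fold.

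Genes whose products pair with p45 or compete with it were split as well. Of the small Maf genes, Mafk read 1721 and 958, a log2 ratio of 0.84. Mafg read 3743 and 1043, a log2 ratio of 1.84, but its second probe set was at -0.12. Maff read 823.7 against 124.4, at least 1.87-fold more in primitive HSC. Bach1, a heme-regulated repressor that binds the same sites as NF-E2, went the other way with 1837 against 6273, a log2 ratio of -1.77. The p45 relative Nfe2l1 stood at -1.04. These 5 genes were chosen for the text after their values had been seen.

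Genes of erythropoietin signalling went both ways. Of 20 genes on the array, 18 were measured, 7 higher in primitive and 11 higher in maturing HSC. Their median was -0.22 (-1.17 with scaling to the hybridisation controls). No ratio or bound reached 4-fold, against 8.13% of all measured genes, and a list of 18 is too short to differ clearly from that share. The phosphatase gene Ptpn11 stood at -1.73, with its 3 probe sets from -1.73 to -0.35, and Gab2, an adaptor, at 1.53. The adaptor gene Grb2 and the kinase gene Pim1 were higher in maturing HSC by at least 2.84-fold and 2.64-fold by their brightest probe set. The ratio or bound of the second probe set was -1.30 for Grb2 and -0.38 for Pim1. The kinase gene Jak2, which binds the erythropoietin receptor, had a log2 ratio of 0.67 with a second probe set at -0.39, and the feedback inhibitor gene Cish stood at -0.15.

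Of 15 heme synthesis genes on the array, 11 were measured, 7 higher in primitive and 4 higher in maturing HSC. Their median was 0.13 (-0.77 with scaling to the hybridisation controls). No ratio or bound reached 4-fold. Among all measured genes 8.13% did, a share at which a list of 11 genes can easily hold none. Cpox, which makes protoporphyrinogen, had the largest difference, at -1.69, followed by Tmem14c (1.57), which moves porphyrin intermediates in mitochondria, and Uros (1.14), the uroporphyrinogen III synthase gene. Abcb10 stood at 0.99, with its probe sets from -0.81 to 0.99, and Ppox was higher in primitive HSC by at least 1.48-fold. Urod (-0.35), the ferrochelatase gene Fech (-0.21), the mitochondrial iron carrier gene Slc25a37 (0.27), the glycine carrier gene Slc25a38 (0.004), Iscu (0.13) and Nfs1 (-0.04) differed by at most 1.27-fold, by their brightest probe set. The ratio or bound of the second measured probe set was -0.61 for Fech and -1.12 for Nfs1. Alas1, the housekeeping form of ALAS2, and Alad were below the floor on both arrays. Of 3 measured genes of heme breakdown, the biliverdin reductase gene Blvra (-2.26) and the heme oxygenase gene Hmox2 (-1.29) were higher in maturing HSC, and Hmox1 stood at 0.05.

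Of the measured iron genes, 2 were at least 4-fold apart, in opposite directions, against 8.13% of all measured genes in either direction. Of 15 on the array, 13 were measured, 7 higher in primitive and 6 higher in maturing HSC, with a median of 0.32 (-0.53 with scaling to the hybridisation controls and -0.31 with the floor at percentile 75). The ferritin heavy chain gene Fth1, for iron storage, read 91513 in primitive and 21548 in maturing HSC, a log2 ratio of 2.09, and its second probe set was higher in primitive HSC too. Aco1, whose product controls Tfrc and ferritin mRNA when iron is scarce, was higher in maturing HSC by at least 10.9-fold, and Ireb2, its relative, by at least 1.91-fold. Tfr2, a transferrin receptor of erythroid and liver cells, stood at 1.76, with both of its probe sets between 1.76 and 1.81, while Tfrc stood at -0.51.

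Genes of the red cell membrane and of late maturation were split. Of 25 on the array, 19 were measured, 10 higher in primitive and 9 higher in maturing HSC, with a median of 0.18 (-0.70 with scaling to the hybridisation controls). Slc2a1, the glucose transporter gene, stood at -2.58 by its brightest probe set and was lower in primitive HSC by all 3. Mkrn1 stood at 2.81, but its 3 measured probe sets ran from -0.60 to 2.81. Xpo7 was higher in maturing HSC by at least 3.80-fold, and the ankyrin gene Ank1 stood at -1.51. Epb42, Rhag, Ermap, Xk and Tmod1 were below the floor on both arrays. The band 3 gene Slc4a1 was below it by its brightest probe set, and 1 of its 3 probe sets was above it on 1 array, with a bound of 0.31.

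**Figure D4:**
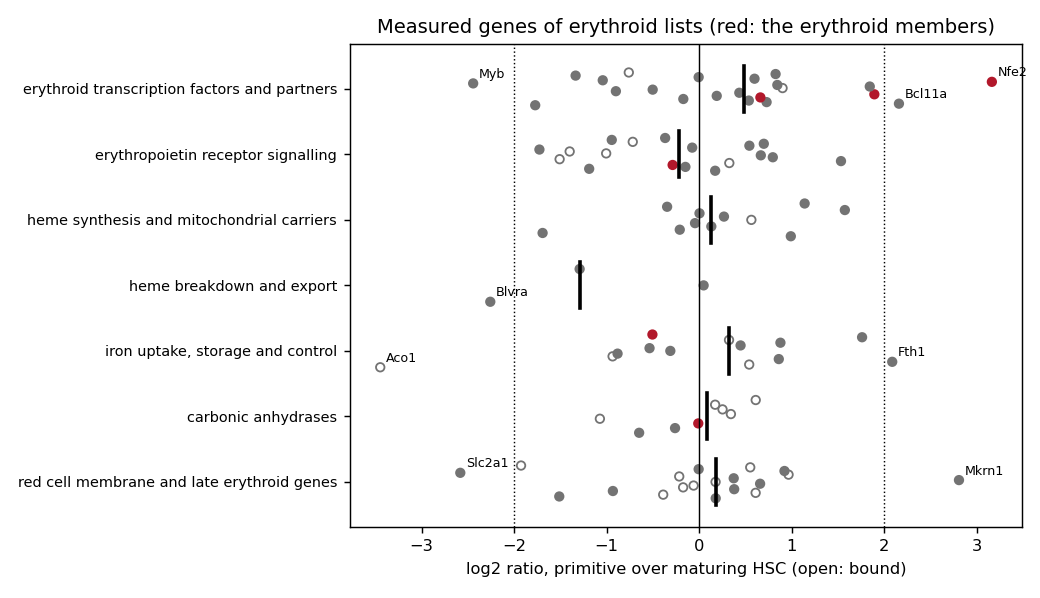
Log2 ratio of primitive over maturing HSC for each measured gene of 7 erythroid lists, with members in red, bounds as open circles, the list median as a black bar and dotted lines at 4-fold. All 7 lists spread to both sides of 0, and the 4-fold lines are passed by Nfe2, Bcl11a, Fth1 and Mkrn1 on the right and Myb, Blvra, Aco1 and Slc2a1 on the left.

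Markers of other cells that also express some of the members differed between the arrays, and their part in the values above was not tested. Medians here are over the measured genes of a list. Summed intensities are over all its genes on the array, those below the floor included. Of 15 megakaryocyte and platelet genes on the array, 11 were measured, with a median of -0.19. The summed intensity of the 15 was 30105 in primitive and 23624 in maturing HSC. Gng11 stood at 4.31 and Gp9 was higher in primitive HSC by at least 4.13-fold, while Thbs1 stood at -2.30 and Itga2b at -0.51, and Ppbp, Vwf, Itgb3 and Clec1b were below the floor on both arrays. Of 12 mast cell and basophil genes, 9 were measured, with a median of 0.19 and a summed intensity of 96723 and 57359, most of it from Srgn (85274 and 43631), Cpa3 was higher in maturing HSC by at least 2.65-fold, and Fcer1a, Tpsab1 and Hdc were below the floor on both arrays. Beside Tfrc and Myb, 13 of 18 measured proliferation genes were higher in maturing HSC, with a median of -1.11 and summed intensities of 55973 in primitive and 110630 in maturing HSC. The median of T and natural killer cell genes was 1.71 over 9 of 13 genes. Of these, 6 were higher in primitive HSC, and 3 in maturing HSC, namely Nkg7 (-0.33), Gzmb (-0.65) and Cd8a (a bound of -0.87). Summed intensities were 60339 and 13148, with Ccl5 (37795 and 1511), Nkg7 (6299 and 7933) and Cd3d (8673 and 44.2) the brightest. Cd3e, Cd3g, Cd4 and Cd2 were below the floor on both arrays. The median of macrophage genes was 0.68 over 9 of 13, with sums of 8498 and 4693, and C1qa, C1qc, Marco and Cd5l were below the floor. Neutrophil genes had a median of 0.68 over 15 of 15, with 9 higher in primitive and 6 higher in maturing HSC. Their sums were 179493 and 105316, with S100a8 (46743 and 19527) and Lyz1 (35511 and 22210) the brightest. The genes at least 4-fold apart, Ms4a3 (-2.66) and, by bounds of -2.55, Mpo and Csf3r, were all higher in maturing HSC. B cell genes had -0.62 over 7 of 10, with sums of 3118 and 7418, and Pax5, Ebf1 and Blnk were below the floor. Ighm was the brightest in maturing HSC (56.6 in primitive, 2880 in maturing), but its 8 measured probe sets ran from -2.71 to 1.38. With the median of probe sets the B cell median was -0.19. Among 9 measured stem cell markers the median was 0.15, with 5 higher in primitive and 4 higher in maturing HSC. Procr (2.61), Thy1 (0.56), Slamf1 (0.24), Kit (-0.41) and Hlf (-1.25) were above the floor on both arrays. The ratio or bound of the other measured probe set was -0.25 for Slamf1 and -0.002 for Hlf. Abcg2 and Mecom were higher in primitive HSC by at least 3.84-fold and 1.11-fold. Meis1 and Tek were higher in maturing HSC by at least 2.72-fold and 2.21-fold. With scaling to the hybridisation controls the medians turned to -0.30 for neutrophil, -0.11 for macrophage, -0.50 for mast cell and -0.74 for stem cell genes, and were -1.16 for megakaryocyte, -1.85 for proliferation, -1.13 for B cell and 1.18 for T and natural killer cell genes. The neutrophil median was 0.16 after lowess and 0.22 after quantile normalization.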

How the data were processed

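Expression was measured on Affymetrix arrays, 1 for each population. The deposited values are linear intensities. Per the submitters' processing notes the authors used MAS5, with no version stated there. The 2% trimmed means over 22690 probe sets were 1000.6 (primitive) and 1000.4 (maturing), so the authors' scaling set both arrays equal, and a difference in RNA per cell cannot be seen. Fewer cells of a type and less RNA per cell cannot be told apart.

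Both arrays were brought to 1 trimmed mean, a floor was set at the pooled median, and each gene was represented by its probe set with the highest mean intensity. A gene at the floor on 1 array has a bound, and a gene at the floor on both was not measured. The rules for naming genes were all members with every probe set, all measured globin, carbonic anhydrase and heme synthesis genes, and the most different genes of the other erythroid lists. Marker lists of other cells are given mainly as medians and sums. Exceptions are further partner and target genes, named for their roles after their values were seen, and the unmeasured genes. Platform symbols of all 9 members matched RefSeq by Entrez identifier. Members and lists were chosen with earlier results of these data known. The steps were tested on simulated data with large differences set in bright genes only. Small differences and genes near the floor were not covered by that test. Alternatives were other scalings, floors, thresholds and probe set rules. Python 3.11.15, numpy 2.4.6, pandas 2.3.3, statsmodels 0.14.6 and matplotlib 3.10.9 were used. The number of arrays limits the precision.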

Additional observations from a re-analysis of the deposited data

Results flagged for a closer look

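Probe sets whose annotation holds several globin genes enter no gene-level comparison, and 3 of 4 gave a signal above the floor. Probe set 1417184_s_at, annotated to Hbb-b1, Hbb-b2, Hbb-bs and Hbb-bt together, read 23612 in primitive and 3326 in maturing HSC, a log2 ratio of 2.83, or 7.10-fold. The alpha-globin probe sets 1428361_x_at and 1452757_s_at had a log2 ratio of 1.26 and a bound of 1.26. All 3 were thus higher in primitive HSC, while 10 of 11 probe sets of single globin genes were below the floor on both arrays. With 1 array per group this difference could not be tested.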

How the results depend on the processing

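The values rest on 1 array per group, so no replicate could be left out, and no paired analysis was possible because each group has 1 array. The count of members at least 4-fold higher in primitive HSC was 1, and it became 2 with a 2-fold threshold, with quantile normalization (Klf1 then at a bound of 2.01) and with no floor (Alas2 then at 3.21 from values under the floor). No member was 4-fold higher in maturing HSC in the 12 alternatives run. The median of the measured members moved from 0.33 to -0.65 with scaling to the hybridisation controls, where the median of all measured genes moved from 0.07 to -0.74. Over the settings in which each gene was measured (Epor was not with the floor at percentile 75), Nfe2 ran from 2.19 to 3.16, Klf1 from 0.69 (floor at percentile 75, where the maturing value is at the floor) to 2.01, Gata1 from -0.31 to 0.80, Epor from -1.26 to -0.14, Tfrc from -1.48 to -0.35 and Car2 from -0.98 to -0.01. The heme breakdown median of -1.29 was 0.05 with the floor at percentile 25 or none, where more genes count as measured. Of the values of single members and list medians under the alternatives, 199 moved by less than the spread between probe sets and 19 by more. This tally does not measure stability, because some alternatives could hardly move a value. The deposited arrays already had nearly equal trimmed means, and the probe set rules could not change members with 1 measured probe set. Scaling to the hybridisation controls divides the whole primitive array by 1 factor. It therefore lowered every measured member by the same log2 amount of 0.97, which is larger than the spread of 0.82. This common shift gave most of the 19 larger moves and is no result about single genes.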
